A study of Mus musculus with 7 samples.

Results

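The neural stem cell (NSC) identity genes were 10 genes, Sox2, Nes, Gfap, Vim, Hopx, Fabp7, Prom1, Nr2e1, Lpar1 and Sox9, taken by gene symbol from the 24346 genes of the expression table. All 10 were among the 14151 genes with a mean of at least 0.5 FPKM over the libraries, which were the genes tested. FPKM counts sequenced fragments relative to the length of the transcript and to the mapped fragments of the library, so that levels can be set side by side between genes. RNA was sequenced from primary neurospheres, floating clusters that grow from dissociated hippocampal cells in medium with EGF and FGF, and the comparison asks whether the NSC program differed when Med23, a subunit of the Mediator complex that links transcription factors to RNA polymerase II, was deleted. The 4 control libraries came from mice WT_215, WT_116, WT_213 and WT_220, and the 3 Med23 CKO libraries from mice KO_117, KO_214 and KO_218, each library being the culture of 1 mouse.

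Control mice carry the genotype label wild type, while the methods describe littermates with floxed Med23 alleles and no CreER, of either sex. Med23 CKO mice carried 2 floxed Med23 alleles and a tamoxifen-inducible Cre under the Nestin promoter. Both groups were C57/BL6, were given tamoxifen by mouth, 200 mg/kg once a day over 5 days, and are labelled as 2 months old; the methods place the tamoxifen for cultures earlier than the label does. Cre was thus driven from regulatory sequence of Nes, itself 1 of the 10 genes, in the animal, and cells that escaped recombination could grow in the same culture.

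Adult hippocampal NSCs are radial glia-like cells that share much of their program with astrocytes. SOX2, SOX9 and NR2E1 (TLX) are transcription factors that maintain the self-renewing state, nestin, vimentin and GFAP are the intermediate filament proteins of these cells, and HOPX, GFAP and prominin-1 are used as marks of the more quiescent or radial cells. As progenitors are activated in growth factors they keep Sox2, Nes and Fabp7, and Gfap is shared with mature astrocytes.

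Med23 itself was measured at 11.4, 10.3, 12.9 and 10.1 FPKM in the 4 controls and at 9.96, 9.27 and 8.12 FPKM in the 3 Med23 CKO libraries. Here and in every list of 4 and 3 values that follows, the mice stand in the order in which they were named above, from WT_215 to WT_220 and from KO_117 to KO_218. The Med23 CKO values were all under the control values, as they were for 1.53% of the genes tested, but KO_117 lay just under WT_220. The log2 fold change was -0.26 (SE 0.18), with p = 0.0571 by a two-sided exact permutation test, where the smallest p that 4 against 3 libraries allow is 0.0286. The value covers the whole transcript and not the deleted exons alone, so how many cells lacked Med23 in each culture was not measured here. The paper reports Med23 deletion from a western blot of hippocampal tissue and from qRT-PCR of the Med23 transcript in primary neurospheres.

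Markers of other cell types differed widely between libraries and must be read beside the NSC genes. Library KO_214 stood apart: the summed level of 12 microglia and macrophage genes was 623 FPKM there and between 24.7 and 139 FPKM in the other 6, that of 10 mural cell and fibroblast genes 389 against 11.2 to 96.5 FPKM, and that of 10 endothelial genes 138 against 7.33 to 74.1 FPKM. KO_117 held little of each, at 25.6, 11.2 and 7.33 FPKM. In bulk RNA, fewer cells of a type and less RNA per cell cannot be told apart. Since these libraries were in the same group, each result on the NSC genes is given with and without them where it changes.

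The upstream sequences of 5 of the genes are shown because their transcripts followed different courses across the libraries: Sox2, Nes and Fabp7 had the same 3 highest libraries, Gfap had its 3 lowest values there, and Vim was high in 2 of these libraries but not in the other. Each is the 250 bases before the annotated RefSeq start on GRCm38 (mm10), written 5′ to 3′ in the direction of the gene. Sox2 lies on chromosome 3 (34649995 to 34652461, forward strand, 1 exon) and its window is chr3:34649745-34649994. Nes lies on the same chromosome (87971093 to 87980451, forward, 4 exons), with the window chr3:87970843-87971092. Fabp7 is on chromosome 10 (57784923 to 57788450, forward, 3 exons), window chr10:57784673-57784922, and Vim on chromosome 2 (13574311 to 13582826, forward, 9 exons), window chr2:13574061-13574310. Gfap is on the reverse strand of chromosome 11 (102887336 to 102897200, 9 exons), window chr11:102897201-102897450. Capitals mark matches, on either strand, to the CCAAT box (CCAAT), a SOX core (ACAAAG), the GC box of SP1 and KLF factors (GGGCGG) and the TATA box (TATAAA).
Sox2: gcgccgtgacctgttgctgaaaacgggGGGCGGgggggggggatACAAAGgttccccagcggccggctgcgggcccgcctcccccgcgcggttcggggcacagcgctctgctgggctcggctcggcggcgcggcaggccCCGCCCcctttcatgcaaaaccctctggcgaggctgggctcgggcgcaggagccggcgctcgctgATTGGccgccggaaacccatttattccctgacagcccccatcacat
Nes: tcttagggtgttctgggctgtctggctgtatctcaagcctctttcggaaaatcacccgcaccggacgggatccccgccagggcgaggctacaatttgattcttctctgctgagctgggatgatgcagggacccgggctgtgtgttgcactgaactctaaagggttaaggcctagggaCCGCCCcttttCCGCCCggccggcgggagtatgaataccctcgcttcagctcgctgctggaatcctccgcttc
Fabp7: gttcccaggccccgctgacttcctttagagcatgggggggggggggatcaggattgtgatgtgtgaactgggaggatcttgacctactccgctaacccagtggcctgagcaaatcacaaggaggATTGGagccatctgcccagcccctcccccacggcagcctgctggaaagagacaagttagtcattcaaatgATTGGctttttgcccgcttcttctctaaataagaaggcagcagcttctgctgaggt
Vim: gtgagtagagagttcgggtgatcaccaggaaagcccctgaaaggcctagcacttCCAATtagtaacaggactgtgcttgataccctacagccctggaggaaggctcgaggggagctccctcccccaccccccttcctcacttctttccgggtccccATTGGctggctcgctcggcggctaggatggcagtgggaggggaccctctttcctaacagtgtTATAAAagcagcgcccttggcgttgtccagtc
Gfap: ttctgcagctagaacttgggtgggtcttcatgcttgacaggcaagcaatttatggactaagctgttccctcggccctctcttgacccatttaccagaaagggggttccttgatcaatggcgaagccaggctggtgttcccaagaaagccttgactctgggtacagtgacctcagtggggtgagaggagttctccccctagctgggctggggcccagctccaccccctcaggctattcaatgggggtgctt

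The SOX core stood in the Sox2 window at position -206 from the start, and Sox2 also held a GC box at -223, the reverse complement of one at -111 and a reversed CCAAT box at -46. Nes held 2 reversed GC boxes, at -73 and -62, Fabp7 held 2 reversed CCAAT boxes, at -126 and -56, and Vim held a CCAAT box at -196, a reversed one at -94 and the TATA box at -32. The Gfap window matched none of the 4 motifs. Of all 32851 promoter windows of the same length, 33.8% held CCAAT, 32.7% GGGCGG, 16.5% ACAAAG and 12.4% TATAAA. In the 13721 windows of tested genes the shares were 34.9%, 56.5%, 12.5% and 6.6%, and among the 13 windows of the 9 NSC genes that could be matched the motifs stood in 7, 5, 3 and 1. An E-box (CAGCTG, 13% of all windows) and a STAT motif (TTCCNGGAA, 0.913%) were searched on both strands as well and matched 0 of the 13, and a nuclear receptor motif (AAGTCA, 13.1%) matched 2, and the letters of no motif among the 7 contain those of another. The Sox2 window was 72% G and C, above the other 4 shown (54.8% to 58.8%) and the median of 52.4% over all windows. A match is a run of letters, not a bound site.

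None of the 10 NSC genes passed the test between Med23 CKO and control neurospheres: every adjusted p was 0.9999 (limma, Benjamini-Hochberg over all genes tested), as 0 of the 14151 genes passed that threshold (0% called). At an unadjusted p under 0.05, 0 of the 10 were higher, beside 0.502% of all genes, and 0 were lower, beside 0.996%. In every one of the 10 the Med23 CKO values overlapped the control values, where 0.784% of all genes lay wholly above and 1.53% wholly below the controls. The mean on the log2(FPKM + 1) scale was lower in Med23 CKO for 8 genes and higher for 2, Gfap and Prom1, with a median log2 fold change of -0.24 (6 lower and 4 higher without KO_117 or without KO_218), and over all genes tested 7955 had a lower and 6196 a higher mean, with a median of -0.03. Within the controls alone the genes spanned 1.58-fold (Vim) to 18.7-fold (Lpar1) between mice.

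**Figure D1:**
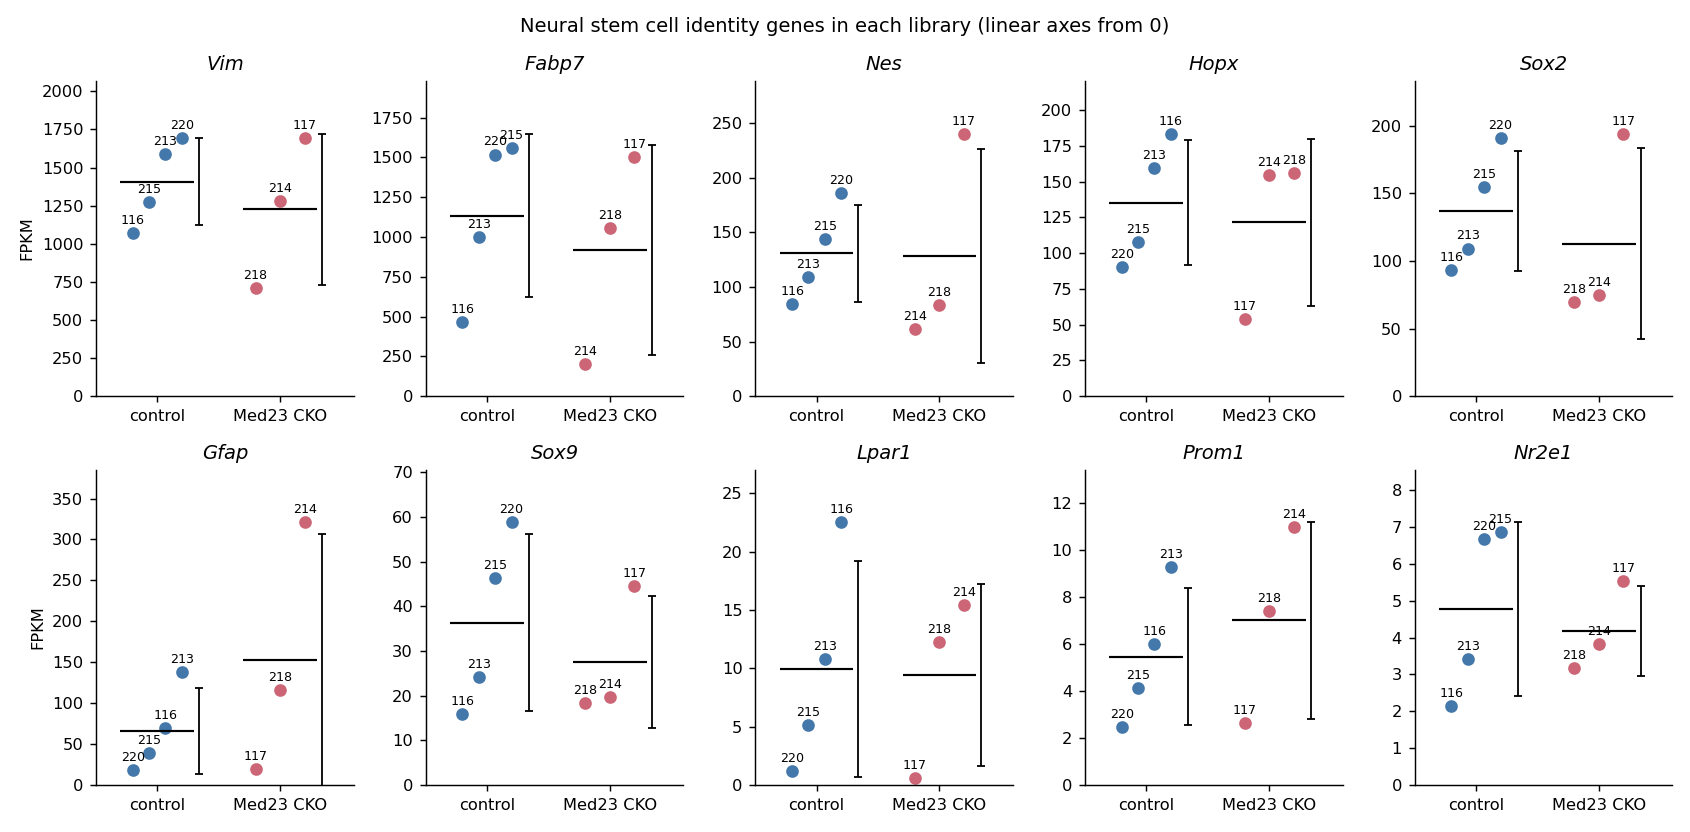
FPKM of the 10 neural stem cell identity genes in each library, in falling order of level, with linear axes from 0; points are single mice (numbers are mouse numbers), horizontal lines group means and bars the SD of 4 control and 3 Med23 CKO libraries, the lower end of the Gfap bar in Med23 CKO falling below 0 and not drawn. In all 10 panels the groups overlap, and KO_117 sits far from KO_214 and KO_218 for Sox2, Nes, Hopx and Lpar1.

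Among the transcription factors, Sox2, which maintains NSC identity, was at 155, 93.1, 109 and 191 FPKM in controls and at 194, 74.5 and 69.4 FPKM in Med23 CKO. KO_117 was the highest of all libraries and the other two Med23 CKO libraries were the lowest, so that the group held both ends of the range. The means were 137 ± 44.4 (SD, n = 4) and 113 ± 70.7 FPKM (SD, n = 3), a log2 fold change of -0.39 (SE 0.42, 95% interval -1.36 to 0.58) with p = 0.486 in the exact permutation test. The interval spans a fall and a rise, so the data set no narrow limit on a change of Sox2.

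Sox9, which acts upstream in the glial and NSC lineage and is also kept by astrocytes, was at 46.4, 15.8, 24.1 and 58.8 FPKM in controls and 44.6, 19.7 and 18.3 FPKM in Med23 CKO. It is a gene of 3 exons on chromosome 11 (112782210 to 112787757, forward strand). The order of libraries resembled that of Sox2, with WT_220, WT_215 and KO_117 above the others. Med23 CKO differed from control by a log2 fold change of -0.33 (SE 0.51, 95% interval -1.51 to 0.85; exact permutation p = 0.6).

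Nr2e1, an orphan nuclear receptor that represses differentiation genes in NSCs, lies on the reverse strand of chromosome 10 (42561963 to 42583590, 9 exons) and had the lowest level in controls among the 10. It was at 6.86, 2.13, 3.41 and 6.68 FPKM in controls and 5.54, 3.83 and 3.18 FPKM in Med23 CKO. All 3 Med23 CKO values lay inside the control range. Its log2 fold change, -0.08 (SE 0.38, 95% interval -0.96 to 0.80; exact permutation p = 0.83), was the closest to 0 among the 10.

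Hopx, an atypical homeodomain protein that marks quiescent radial cells, was at 108, 184, 159 and 90.1 FPKM in controls and 53.9, 155 and 156 FPKM in Med23 CKO. Here KO_117 was the lowest library and KO_214 and KO_218 lay near WT_213, the reverse of the picture for Sox2. For Hopx the log2 fold change was -0.25 (SE 0.43, 95% interval -1.26 to 0.76; exact permutation p = 0.657), and without KO_117 it was 0.26. Hopx (chromosome 5, 77086986 to 77115123, reverse strand, 3 exons) shares 412 exon bases with the antisense gene Hopxos, and since counting by strand is not stated, reads of both cannot be told apart.

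Of the intermediate filament genes, Nes, which encodes nestin, was at 144, 84.1, 109 and 186 FPKM in controls and 240.5, 61.1 and 83.2 FPKM in Med23 CKO. KO_117 was again the highest and KO_214 the lowest of the 7. The group means were nearly the same, 131 ± 44.1 (SD, n = 4) and 128.3 ± 97.8 FPKM (SD, n = 3), with a larger SD in Med23 CKO. This gave a log2 fold change of -0.22 (SE 0.49, 95% interval -1.36 to 0.91; exact permutation p = 0.714), and 0.18 without KO_214.

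Vim, which encodes vimentin, was the most abundant of the 10 and ranked 23 among all 14151 genes by its level in controls. It was at 1275, 1073, 1589 and 1692 FPKM in controls and 1694, 1280 and 708 FPKM in Med23 CKO. KO_218 was the lowest library, whereas KO_117 and WT_220 were almost level at the top. With a log2 fold change of -0.26 (SE 0.33, 95% interval -1.03 to 0.51; exact permutation p = 0.629), Vim had the narrowest interval of the 10.

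Gfap, the filament gene that NSCs share with astrocytes, was at 39.2, 69.6, 138 and 17.8 FPKM in controls and 19.4, 321 and 116.5 FPKM in Med23 CKO. KO_214 was 18-fold above WT_220, the lowest library, and the Med23 CKO group spanned nearly the whole range alone. The means were 66.2 ± 52.5 (SD, n = 4) and 152 ± 154 FPKM (SD, n = 3). Gfap had the largest log2 fold change of the 10, 0.81 (SE 0.999, 95% interval -1.52 to 3.15; exact permutation p = 0.543), and without KO_214 it was -0.09 (SE 0.95, adjusted p = 0.9998, limma). KO_214 was also the library with the most microglial, mural, endothelial and astrocyte marker RNA; the part of this in the Gfap value was not tested.

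Fabp7, the brain lipid-binding protein of radial glia, was at 1557, 463, 1000 and 1518 FPKM in controls and 1501, 203 and 1054 FPKM in Med23 CKO. Only KO_214 lay below the controls, and KO_117 was near the top with WT_215 and WT_220. Its log2 fold change was -0.58 (SE 0.74, 95% interval -2.30 to 1.15; exact permutation p = 0.571). Without KO_214 it was 0.30 (SE 0.52, adjusted p = 0.9998, limma), so 1 library set its direction.

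Prom1, the membrane glycoprotein CD133, was at 4.11, 5.99, 9.25 and 2.46 FPKM in controls and 2.64, 11.0 and 7.39 FPKM in Med23 CKO. The library order resembled that of Gfap, with KO_214 and WT_213 at the top and KO_117 and WT_220 at the bottom. The summed endothelial markers had these same libraries at the top (138 and 74.1 FPKM) and at the bottom (7.33 and 11.4 FPKM). The part of other cells in the Prom1 value was not tested. Prom1 had a log2 fold change of 0.26 (SE 0.50, 95% interval -0.91 to 1.43; exact permutation p = 0.657), and -0.11 without KO_214. Prom1 (chromosome 5, 43993621 to 44102047, reverse strand, 25 exons) shares 424 exon bases with the antisense gene Gm16401, whose reads cannot be told apart from its own.

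Lpar1, a receptor for lysophosphatidic acid found on hippocampal NSCs and also on oligodendrocytes, was at 5.16, 22.5, 10.8 and 1.21 FPKM in controls and 0.559, 15.5 and 12.2 FPKM in Med23 CKO. It varied the most, 40.3-fold from KO_117 to WT_116. Its log2 fold change was -0.17, with the widest interval of the 10 (SE 1.03, 95% interval -2.58 to 2.25; exact permutation p = 0.857). Without KO_117 it was 0.91 (SE 0.85, adjusted p = 0.66, limma). The gene lies on the reverse strand of chromosome 4 (58435252 to 58554027, 4 exons).

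In rank of level over the 7 libraries, Vim and Fabp7 came first, Nes, Hopx and Sox2 formed a middle group, Gfap and Sox9 followed, and Lpar1, Prom1 and Nr2e1 were the lowest. Compared within libraries by an exact sign-flip permutation test, the step from Fabp7 down to Nes held in 7 of 7 libraries (p = 0.0156, the smallest the test can give) and that from Sox9 to Lpar1 in 6 of 7 (exact p = 0.0469). The other 7 neighbouring pairs did not differ beyond their spread, with exact p from 0.219 for Gfap and Sox9 to 0.953 for Hopx and Sox2. The pairs and their order were taken from the same levels that were tested, and no p-value was adjusted. These p-values therefore only describe the order. Together the 10 genes made up 0.414% to 0.688% of the summed FPKM in controls and 0.4% to 0.691% in Med23 CKO, and most of that was Vim and Fabp7.

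Across the mice the genes took opposite courses, and the libraries at either end came from mice of both genotypes. KO_117, WT_215 and WT_220 were the 3 highest libraries for 5 genes, Sox2, Nes, Fabp7, Nr2e1 and Sox9, and the 3 lowest for 4 genes, Gfap, Hopx, Prom1 and Lpar1. These 3 libraries were singled out after the values were seen, and over all genes tested they were the 3 highest for 26.1% and the 3 lowest for 23.6%. Vim met neither description, since WT_213 and KO_214 were above WT_215, but KO_117 and WT_220 were its highest libraries too, and its Pearson's r with Sox2 over the 7 libraries, 0.76, was near that of Fabp7 with Sox2, 0.711. The Sox2, Nes and Fabp7 upstream sequences printed above thus belong to genes of the first set and the Gfap sequence to the second.

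**Figure D2:**
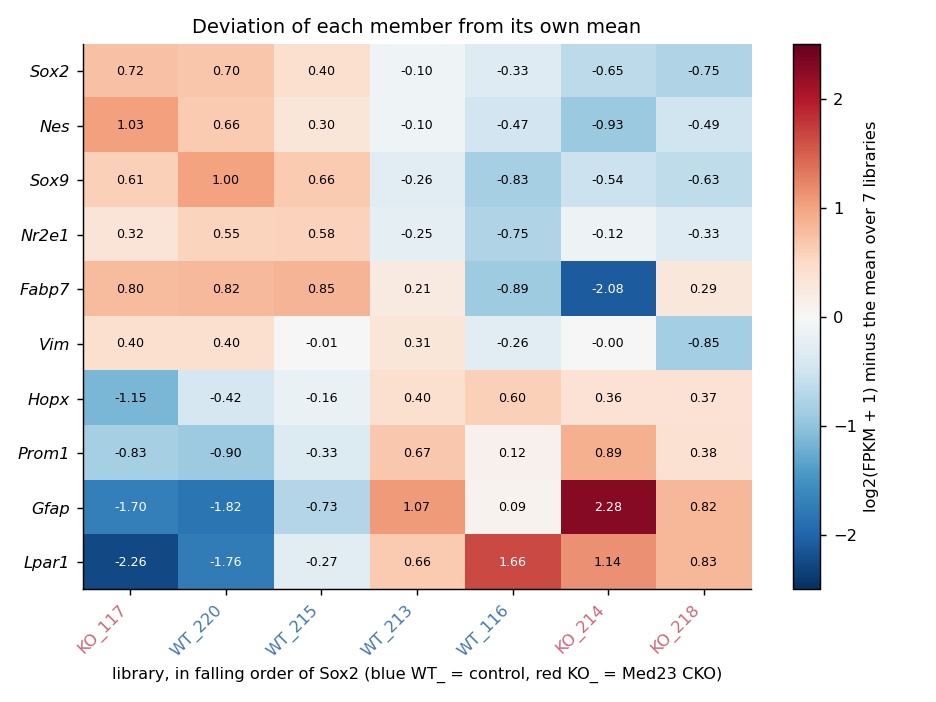
Deviation of each gene from its own mean over the 7 libraries, as log2(FPKM + 1), with 1 row per gene and 1 column per library in falling order of Sox2; red is above and blue below the mean, and label colours mark control and Med23 CKO mice. The KO_117 column resembles WT_220 and WT_215, with Sox2 at 0.72 and Lpar1 at -2.26, and the KO_214 column runs from -2.08 for Fabp7 to 2.28 for Gfap.

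As a description over 7 libraries that share their tissue makeup and scaling, Pearson's r of log2(FPKM + 1) was 0.955 between Sox2 and Nes, 0.95 between Nr2e1 and Sox9, 0.989 between Gfap and Prom1 and 0.961 between Hopx and Lpar1. Across the sets it was negative, for example -0.921 between Nes and Gfap. The most similar gene to each of the 10 among all genes tested was Gemin5 for Sox2 (r = 0.999), Mmab for Nes (0.997), Pros1 for Gfap (0.998), Zfp697 for Vim (0.99), Rasgef1a for Hopx (0.992), Neil3 for Fabp7 (0.994), Cd34 for Prom1 (0.995), Celrr for Nr2e1 (0.992), Slc44a1 for Lpar1 (0.999) and BC024978 for Sox9 (0.996). Each of these was picked as the maximum over all genes with only 7 libraries, and no test was made.

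Spread between mice set Gfap and Lpar1 apart from the rest. The SD of log2(FPKM + 1) over the 7 libraries was larger than that of 98.6% of the genes tested for both, 94.9% for Fabp7, and between 62% and 84.6% for the other 7, with Vim the steadiest. Among the 4 controls alone Gfap spanned 7.77-fold, while Hopx spanned 2.04-fold, Sox2 2.05-fold and Nes 2.21-fold.

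Levels were also compared relative to Sox2 in the same library, which allows for a different amount of RNA from cells without Sox2 only where the gene is itself confined to Sox2 cells. Gfap and Lpar1 are also expressed by other cells, and whether the other genes, Vim, Nes and Prom1 among them, are confined to Sox2 cells was not tested. Nes tracked Sox2 closely: the ratio of their FPKM was 0.928, 0.904, 0.999 and 0.974 in controls and 1.24, 0.821 and 1.2 in Med23 CKO. Controls thus lay within 0.904 to 0.999 and all 3 Med23 CKO libraries outside that range, 2 above and 1 below, and the mean difference of 0.17 on the log2 scale had an exact permutation p of 0.343. Without KO_214 that difference was 0.35 (exact permutation p = 0.0667, the smallest possible there). Without KO_117 it was 0.061 (exact permutation p = 0.667). The Sox9 to Sox2 ratio ranged over 0.17 to 0.309 in controls and 0.23 to 0.264 in Med23 CKO, inside the control range.

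The ratio of Gfap to Nes, an astroglial against a progenitor filament, spread 65-fold. It was 0.273, 0.828, 1.27 and 0.0959 in controls and 0.0808, 5.25 and 1.4 in Med23 CKO, the same group holding the lowest and the highest library. Relative to Sox2, the differences between groups on the log2 scale ran from -0.19 for Fabp7 to 1.2 for Gfap, all groups overlapped, and the exact permutation p was between 0.314 for Nr2e1 and 0.943 for Hopx over the 9 genes, with no adjustment. The Gfap difference was 0.087 without KO_214 and 2.76 without KO_117 (exact permutation p = 0.933 and 0.133). For Nr2e1 these values were 0.14 and 0.61 (exact permutation p = 0.733 and 0.0667). The ratio of Lpar1 to Nr2e1 spread 105-fold and that of Fabp7 to Vim 9.4-fold, from 0.158 in KO_214 to 1.49 in KO_218.

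**Figure D3:**
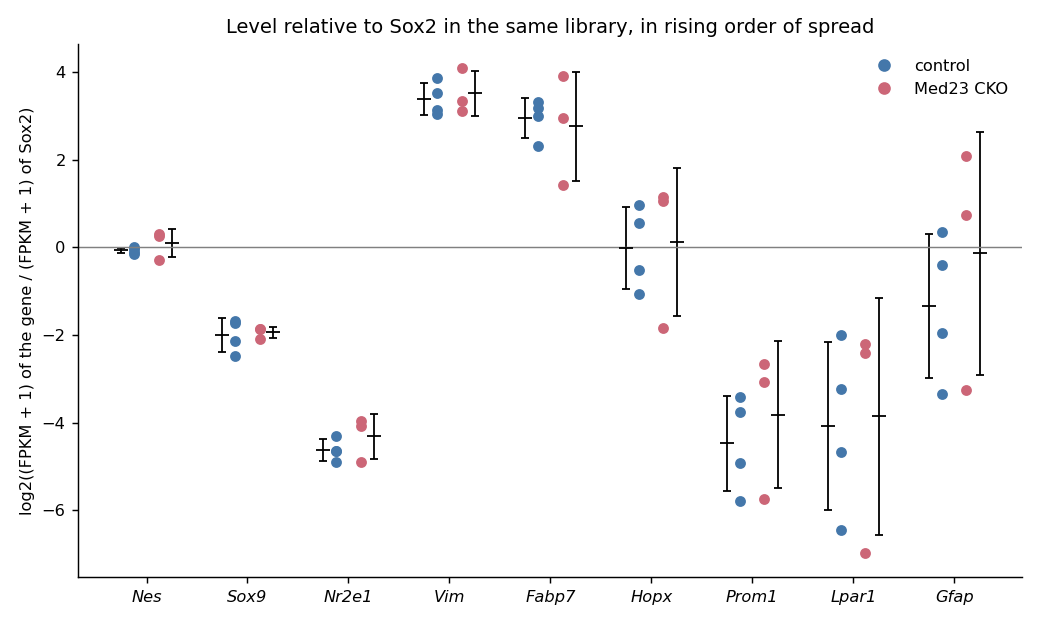
Log2 of (FPKM + 1) of each gene over (FPKM + 1) of Sox2 in the same library, in rising order of spread over the 7 libraries; points are single mice, and the horizontal ticks and bars beside them are the mean and SD of 4 control and 3 Med23 CKO libraries. Nes controls lie in a narrow band just under 0 with the Med23 CKO points on either side of it, and Gfap and Lpar1 spread the widest.

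Of the 7 libraries left out singly, KO_117 was the only one whose removal brought any of the 10 genes to an unadjusted p under 0.05. Without it the log2 fold change was -0.86 for Sox2 (SE 0.31, 95% interval -1.59 to -0.14), -0.80 for Nes (SE 0.33, 95% interval -1.59 to -0.02) and 1.90 for Gfap (SE 0.79, 95% interval 0.04 to 3.75). These 3 genes passed that threshold, each with an adjusted p of 0.597 (limma), and Sox2 and Nes lay wholly under the controls. The whole table moved with this choice, as 5.43% of all genes then had an unadjusted p under 0.05 and 12.1% lay wholly under the controls. Without KO_214 the log2 fold changes were -0.18 for Sox2 and 0.18 for Nes.

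**Figure D4:**
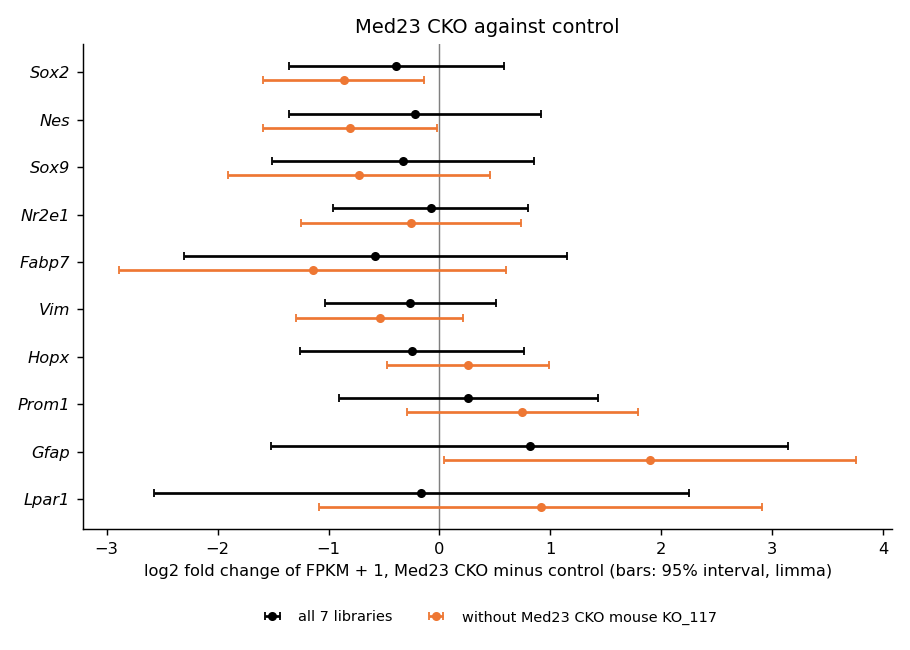
Log2 fold change of FPKM + 1, Med23 CKO minus control, with 95% intervals from limma, for all 7 libraries (black) and without Med23 CKO mouse KO_117 (orange). All black intervals cross 0, whereas the orange intervals of Sox2, Nes and Gfap lie to one side of 0, with no adjusted p under 0.597.

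A wider list of 35 other NSC and radial glia genes, of which 34 were tested, had a median log2 fold change of -0.10 and 0 genes at an unadjusted p under 0.05, with 22 lower and 12 higher in mean. Without KO_214 the median was 0.02, with 16 lower and 18 higher. Without KO_117 it was -0.46, with 26 lower and 8 higher. In that fit 5 of the 34 had an unadjusted p under 0.05 (limma), as had 5.43% of all genes tested. Its summed level was 883 to 1997 FPKM in controls and 943 to 1894 FPKM in Med23 CKO. KO_117, WT_215 and WT_220 were the 3 highest libraries for 21 of the genes tested and the 3 lowest for 3, as they were the highest for Sox2 and its set. The most abundant were Cd9, a tetraspanin (log2 fold change 0.14, SE 0.24), Tnc, the matrix protein tenascin-C (-1.22, SE 0.79), and Slc1a3, the glutamate transporter GLAST (-0.34, SE 0.31), while Veph1 was under 0.1 FPKM throughout and listed at 0 in WT_116 and WT_220.

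The 12 proliferation genes, led by Pcna, Ccnb1 and Top2a, had their 3 highest libraries in KO_117, WT_215 and WT_220 without exception, the course of Sox2 and Nes. Their summed level was 1069, 397, 581 and 1094 FPKM in controls and 1451, 250 and 691 FPKM in Med23 CKO, so that KO_117 and KO_214 were the ends of the range. On the log2(FPKM + 1) scale all 12 had a lower mean in Med23 CKO, with a median log2 fold change of -0.47 and 0 at an unadjusted p under 0.05, whereas in FPKM 6 had a higher and 6 a lower mean. Without KO_214 all 12 were higher on the log2 scale, with a median of 0.47, so 1 library set the direction. Without KO_117 all 12 were lower, with a median of -1.32 and 0 at an unadjusted p under 0.05.

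Of the astrocyte markers, some ranged across the libraries as Gfap did and others did not. In the 12 astrocyte genes, led by Apoe and Aldoc, the summed level was 922, 1307, 1225 and 639 FPKM in controls and 510, 2718 and 1184 FPKM in Med23 CKO, with 9 genes higher and 3 lower in mean log2(FPKM + 1) and a median log2 fold change of 0.40, which was 0.02 without KO_214. Without KO_117 the median was 1.01, with 11 genes higher and 1 lower. In that fit 5 of the 12 had an unadjusted p under 0.05 (limma), as had 5.43% of all genes tested. Apoe alone made up 1674 of the 2718 FPKM in KO_214. Aldh1l1, named after its values were seen, ran the other way, with its highest levels in WT_220 (197 FPKM) and KO_117 (123.5 FPKM). KO_117, WT_215 and WT_220 were the 3 lowest libraries for 6 of these 12, and for 9 of 11 microglial, 9 of 10 endothelial and 2 of 10 mural genes tested.

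Oligodendrocyte lineage RNA was abundant in these cultures. The 12 genes, led by Mbp and Olig1, summed to 3040 to 5620 FPKM in controls and 2290 to 3410 FPKM in Med23 CKO, 11 of them lower and 1 higher in mean (median log2 fold change -0.58, 0 at an unadjusted p under 0.05). Without KO_117 the median was 0.58, with 8 higher and 4 lower. The list did not follow a single course: KO_117, WT_215 and WT_220 were the 3 lowest libraries for 7 of the 12 genes and the 3 highest for 3. Olig1, among the latter, was at 1361, 437, 603 and 1943 FPKM in controls and 1586, 214.5 and 334 FPKM in Med23 CKO. Mbp, a protein of mature myelin, ran the other way, at 838, 2234, 1023 and 238 FPKM in controls and 66.5, 1515 and 1195 FPKM in Med23 CKO. That order of libraries was also the order of Lpar1, from KO_117 and WT_220 at the bottom to WT_116 at the top, and the part of oligodendrocytes in the Lpar1 value was not tested.

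In the list of microglia and macrophage genes, led by Cd68 and Trem2, Med23 CKO had the higher mean for 11 of the 11 tested (median log2 fold change 0.86), as had all 10 endothelial genes, led by Cldn5 and Esam (0.52), and all 10 mural and fibroblast genes, led by Acta2 and Col1a2 (0.65), with 0 of the 31 at an unadjusted p under 0.05. Without KO_214 these directions turned: the medians were -0.17, -0.16 and -0.46, and a higher mean was found for 2 of 10 microglial, 1 of 9 endothelial and 0 of 8 mural genes then tested. Without KO_117 all means stayed higher, with medians of 1.71, 1.33 and 1.62. In that fit 4, 3 and 1 genes had an unadjusted p under 0.05 (limma), beside 5.43% of all genes tested. The homeostatic microglial receptor gene Cx3cr1 had a mean under 0.5 FPKM. The 10 neuroblast and neuron genes tested, led by Map2 and Snap25, had 4 higher and 6 lower means (median -0.12) and summed levels of 140 to 163 FPKM in controls and 92.7 to 201 FPKM in Med23 CKO, and the intermediate progenitor gene Eomes and the neuronal Neurod2 had means under 0.5 FPKM. Map2 alone made up 147.5 of the 201 FPKM in KO_117 and 24.2 of the 92.7 FPKM in KO_214, whereas Snap25 was lowest in KO_117 (6.2 FPKM). KO_117, WT_215 and WT_220 were the 3 highest libraries for 1 of the 10 genes and the 3 lowest for 3. Of 8 ependymal genes, led by Foxj1 and Cfap126, 5 were tested and all had a lower mean (median -0.42; -0.15 with 2 of the 5 higher without KO_117), while Tmem212, Ccdc153 and Ak7 had means under 0.5 FPKM. Cultures labelled primary NSCs thus had all 10 NSC genes above 0 in every library, beside RNA of the oligodendrocyte lineage and of astrocytes.

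**Figure D5:**
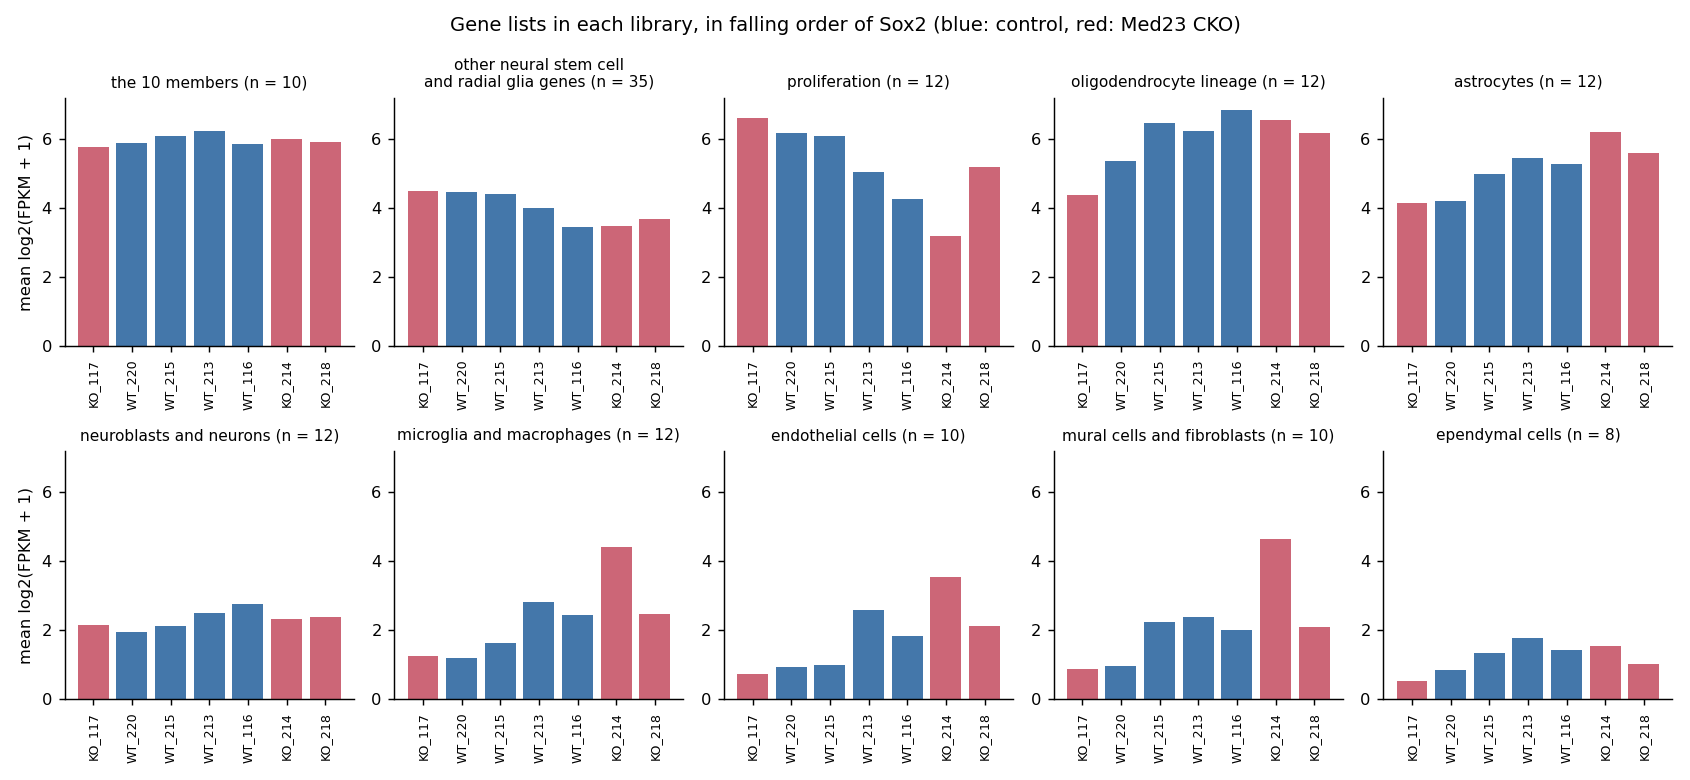
Mean log2(FPKM + 1) of the 10 neural stem cell identity genes, the other neural stem cell and radial glia genes, proliferation genes and 7 lists of cell type markers in each library, in falling order of Sox2; blue bars are control and red bars Med23 CKO mice, and all panels share an axis from 0. Proliferation genes are highest in KO_117 (6.61) and lowest in KO_214 (3.19), where microglial, endothelial and mural lists have their tallest bars, and the mean of the 10 genes stays between 5.77 and 6.23.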

How the data were processed

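RNA-seq libraries of primary neurospheres from 4 control and 3 Med23 CKO mice were grouped by their genotype labels. The paper states 3 mice in each group and does not name them, so all 4 controls were kept. The authors removed adapters, aligned reads to mm10 with TopHat and deposited FPKM per gene from Cuffdiff for each library. Group means, fold changes and p-values and q-values of the authors' own comparison in the same table were not used. No counts were used and sequencing depth is unknown, so the number of libraries limits the precision; the deposited FPKM are of libraries made with a kit for which strand was not stated. Columns without a sample numbered 0.

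FPKM were analysed as log2(FPKM + 1) for 14151 genes whose mean over the libraries reached 0.5 FPKM, so fold changes of low genes are understated. Groups were compared by limma 3.58.1 (lmFit, eBayes with trend; R 4.3.3), two-sided, with Benjamini-Hochberg adjustment over all genes tested, and single genes and ratios by exact permutation over the 35 assignments of 7 libraries to groups of 4 and 3 in Python 3.11.15 (numpy 2.4.6, pandas 2.3.3). Neighbouring levels were compared by exact sign flips within libraries (128 sign patterns). P-values measure the spread between mice. The fit was tested on simulated data with independent noise in each gene. The real libraries share courses over many genes, so that check does not show how the fit behaves on them.

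The 10 genes and all lists were chosen with earlier results of these data known. The text names every one of the 10 genes, Med23, the 3 most abundant of the other NSC genes and any with an unadjusted p under 0.05, the 2 most abundant of each list of cell type markers and those with a mean under 0.5 FPKM, and the gene most correlated with each of the 10. Proliferation genes named were chosen after their values were seen. Positions and upstream sequences are from RefSeq on GRCm38, where 9 of the 10 genes had a promoter window, all but Sox9. Strands, exon counts of the longest coding transcript and antisense overlaps are from GENCODE on the same build. Hopxos and Gm16401 are not among the genes of the expression table. Alternatives were another pseudocount, other filters, quantile normalization, centring on the median, limma without trend, with robust empirical Bayes or with array weights, a covariate for the leading digit of the mouse number, and each library left out in turn. The directions of the lists without single Med23 CKO libraries and in FPKM were added after the data were seen.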

Additional observations from a re-analysis of the deposited data

How the results depend on the processing

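Over the 17 fits, the reported one included, 0 of the 10 genes had an adjusted p under 0.05 (limma), and of the 10 Sox2 and Sox9 kept the direction of their log2 fold change in all of them; 145 values under alternatives kept direction and side of the threshold and 15 turned. The cause of these changes was not tested. When single libraries were left out, the log2 fold change ranged from -0.80 to 0.18 for Nes, from -0.092 to 1.90 for Gfap, from -1.14 to 0.30 for Fabp7 and from -0.11 to 0.75 for Prom1, which turned without KO_214 (Prom1, at -0.0016, also without WT_220). It ranged from -0.50 to 0.26 for Hopx, which turned without KO_117, from -0.54 to 0.088 for Vim, which turned without KO_218, from -0.34 to 0.11 for Nr2e1, which turned without WT_215, WT_220 or KO_218, and from -0.79 to 0.91 for Lpar1, which turned without WT_116, WT_213 or KO_117. With array weights Hopx was at 0.079 and Lpar1 at 0.36. Relative to Sox2, 79 values kept direction and 10 turned, all with a library left out: the ranges were -0.16 to 0.32 for Vim, -0.37 to 1.121 for Hopx, -0.76 to 0.48 for Fabp7, -0.61 to 1.78 for Lpar1 and -0.099 to 0.17 for Sox9.

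With array weights, whose estimation gave a convergence warning, 2 of the 10 genes (Sox2 and Vim) and 2 of the 34 other NSC genes tested had an unadjusted p under 0.05. So had 193 higher and 887 lower genes of the 14151 tested (7.63%). With no filter 140 genes were higher, and with quantile normalization 1 other NSC gene had an unadjusted p under 0.05, beside 1.59% of the genes tested. With each library left out in turn, genes with an adjusted p under 0.05 numbered 0 to 1 (Snora64 without KO_214, Gm38671 without KO_218), those with an unadjusted p under 0.05 44 to 362 higher and 71 to 410 lower, NSC genes at that p 0 to 3, NSC genes with groups apart 0 to 2, and other NSC genes at that p 0 to 5. The upper ends, except the single adjusted calls, were without KO_117. In that fit 5.43% of all genes tested had an unadjusted p under 0.05, and 12.1% lay wholly under the controls. The counts are out of 10 NSC genes and 34 other NSC genes tested. The methods describe littermate controls, but the litter of each mouse was not known here, so no pairs could be formed.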
